A study of Arabidopsis thaliana with 6 samples.

Results

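The mature miRNAs of wild-type Arabidopsis thaliana rosettes were described from 2 small RNA libraries, which are 2 of the 6 libraries of the series. All 349 mature miRNA sequences listed in the deposited table were kept, and 161 of them had at least 1 read in either library. Both libraries were made from total RNA of rosette leaves of 3-week-old soil-grown plants, titled Col and given the genotype WT, and they were stated to be 2 biological replicates. In the series they serve as the control for mutants of the processing factor HYL1 (hyl1-2) and of SnRK2 kinases (snrk2.2/3/6), with 2 libraries each, whose values were not used here. Only reads identical to an annotated mature sequence had been counted, so trimmed, tailed or shifted forms are outside these values. The table held miRNAs only, so the tissue could not be checked against marker genes.

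A plant miRNA is cut from a folded primary transcript by the nuclease DCL1, which works with HYL1 and SERRATE. The cut releases a duplex of strands from the 5′ arm (5p) and the 3′ arm (3p) of the precursor, of which usually one strand is retained in an ARGONAUTE protein and guides it to complementary mRNAs. AGO1 prefers small RNAs with a 5′ U and is the main effector of miRNAs in leaves, whereas AGO2 and AGO4 prefer a 5′ A and AGO5 a 5′ C.

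The depth was 16350213 genome-matched reads for replicate 1 and 16299073 for replicate 2, and mature miRNAs took up 34567 and 30427 of them. These were 0.211% (95% Wilson interval 0.209 to 0.214%) and 0.187% (0.185 to 0.189%) of the matched reads. Abundance was expressed as RPTM, reads per 10000000 genome-matched reads, so that 1 read was worth 0.612 RPTM in replicate 1 and 0.614 RPTM in replicate 2. A count of 0 allowed up to 1.83 RPTM in replicate 1 and 1.84 RPTM in replicate 2, the value of 3 reads. Intervals and such limits cover counting error only.

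The sequences below are the 10 most abundant, with miR165a-3p/b and miR396a-5p, which share a seed (bases 2 to 8 from the 5′ end, in capitals) with one of them. miR396a-3p is shown because both arms of its precursor were read at similar levels, and miR319a/b because it differed most between the libraries among the abundant sequences. They are written 5′ to 3′ as in the deposited table, with T for U.
miR159b-3p: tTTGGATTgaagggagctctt
miR159a: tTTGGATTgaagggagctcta
miR166a-3p to g: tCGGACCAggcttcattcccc
miR165a-3p/b: tCGGACCAggcttcatccccc
miR158a-3p: tCCCAAATgtagacaaagca
miR398b-3p/c-3p: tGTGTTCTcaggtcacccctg
miR161.1: tGAAAGTGactacatcggggt
miR5026: aCTCATAAgatcgtgacacgt
miR162a-3p/b-3p: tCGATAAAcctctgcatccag
miR163: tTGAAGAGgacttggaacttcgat
miR396b-5p: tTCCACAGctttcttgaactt
miR396a-5p: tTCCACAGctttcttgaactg
miR396a-3p: gTTCAATAaagctgtgggaag
miR319a/b: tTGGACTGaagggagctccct
The seed of the miR159 sequences, TTGGATT, headed 27.7% of all miRNA reads. The seed shared by miR165 and miR166 headed 15.7%, that of miR158 14.5% and that of miR398 8.28%. In all, 140 seeds occurred among the detected sequences, and 18 of them were shared by at least 2 sequences.

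Few sequences held most of the miRNA reads. The 4 most abundant sequences held 50% of them, 15 held 90% and 60 held 99%. miR159b-3p, which targets GAMYB-like MYB transcription factors, had 3316 and 3122 RPTM in replicates 1 and 2 (mean 3219 ± 137, SD, n = 2) and 16.2% of the miRNA reads. It ranked highest in both libraries. miR158a-3p followed with 2950 and 2785 RPTM. The sequence shared by the 7 MIR166 genes, which targets HD-ZIP III regulators of leaf polarity, had 3235 RPTM in replicate 1 and 2187 RPTM in replicate 2, the widest spread among the 6 highest sequences (2711 ± 742). Its reads could not be divided among those genes. miR159a had 2472 and 2066 RPTM. miR398b-3p/c-3p, which targets copper/zinc superoxide dismutases, had 1731 and 1513 RPTM. miR161.1, directed at pentatricopeptide repeat genes, had 1590 and 1495 RPTM. These 6 sequences were the 6 highest in each library and held 71.4% of the reads.

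**Figure D1:**
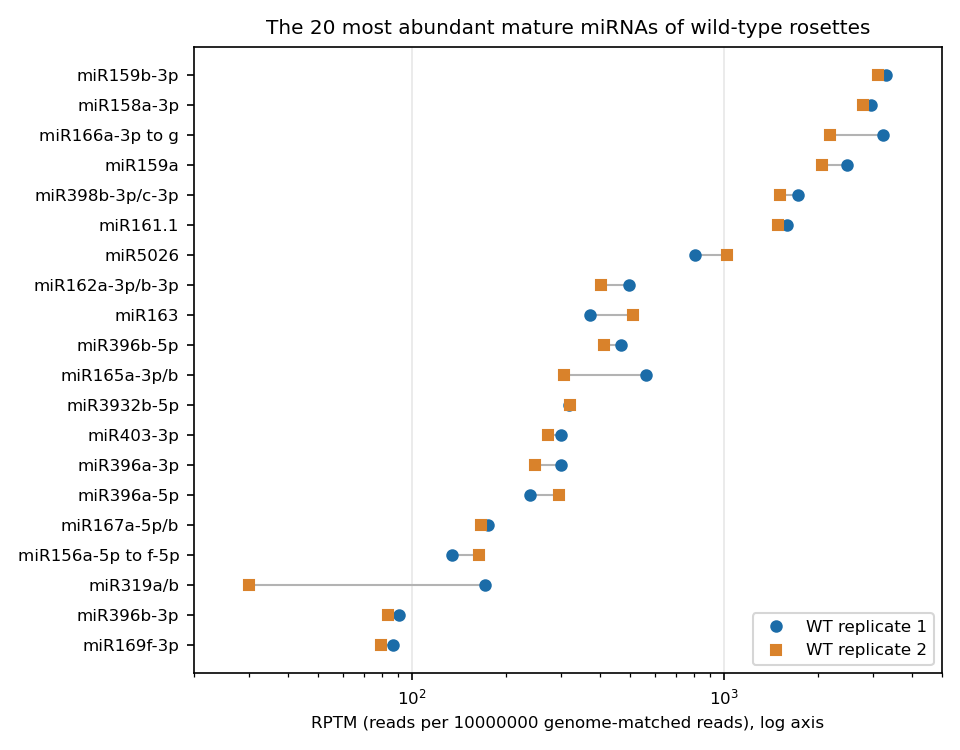
RPTM (reads per 10000000 genome-matched reads, log axis) of the 20 most abundant mature miRNAs in WT replicate 1 (circles) and WT replicate 2 (squares), ordered by the mean. The 6 highest sequences are the same in both libraries, and miR319a/b shows the widest gap, 171.9 RPTM in replicate 1 and 30.1 RPTM in replicate 2.

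The next 12 sequences, all of at least 100 RPTM on average, held 21.4% of the reads. miR5026, which begins with A, had 806 and 1026 RPTM and was the highest of them in both libraries. miR162a-3p/b-3p, which targets DCL1 itself, had 497 and 402 RPTM. The 24-nt miR163, which targets methyltransferase genes, had 372 and 512 RPTM. miR396b-5p, which targets growth-regulating factors, had 469 and 414 RPTM. The order of many neighbouring ranks was not firm. Of 20 neighbours in the order of the mean, counted from the highest sequence down, 11 kept their order in both libraries. In 5, the 95% Wilson intervals were apart in both. miR158a-3p and the 3p strand of miR166, near the top, were among those that changed order. Of the 20 highest sequences of each library, 18 were shared.

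The remaining sequences of the top 20 came from families with known targets in most cases. miR165a-3p/b, the near relative of miR166, had 565 RPTM in replicate 1 and 307 RPTM in replicate 2. miR3932b-5p had 318 and 321 RPTM, the closest values of the 20. miR403-3p, which targets AGO2, had 300 and 274 RPTM. Both strands of miR396a belonged to this range, with 301 and 248 RPTM for miR396a-3p and 239 and 295 RPTM for miR396a-5p, so that their order differed between the libraries. miR167a-5p/b, which targets ARF6 and ARF8, had 175 and 166 RPTM. The 20-nt miR156a-5p to f-5p had 135 and 164 RPTM. miR319a/b had 172 and 30.1 RPTM, miR396b-3p 91.1 and 84.1 RPTM, and miR169f-3p 86.8 and 79.8 RPTM.

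By mean level, 41 sequences lay between 10 and 100 RPTM with 6.10% of the reads, miR396b-3p and miR169f-3p among them. A further 102 detected sequences lay under 10 RPTM with 1.03%. The median detected sequence had 2.76 RPTM. Detection was shared for 126 sequences, while 19 were read in replicate 1 only and 16 in replicate 2 only, none of these with more than 3 reads. The other 188 listed sequences had no read in either library, so their level was under the limits given above. Sequences listed for several genes had the higher median, 17.8 RPTM over 32 detected sequences, against 1.84 RPTM over 129 detected sequences of 1 gene. They held 30.5% of the reads, so most reads were of sequences of 1 gene.

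All 349 listed sequences matched the TAIR10.1 genome exactly, and all 161 detected sequences matched inside an annotated MIR gene. Of the detected sequences, 115 had 1 genomic match and held 62.7% of the reads. miR159b-3p lay at chr1:6220813-6220833 on the plus strand, in the exon of MIR159b (AT1G18075). miR158a-3p lay at chr3:3366349-3366368 on the minus strand in MIR158a (AT3G10745), and miR159a at chr1:27713234-27713254 on the minus strand in MIR159a (AT1G73687). miR161.1 lay at chr1:17825731-17825751 on the plus strand in MIR161 (AT1G48267). The same gene gives miR161.2 from the overlapping interval chr1:17825722-17825742, which had 13 and 11 reads against 2599 and 2437 reads of miR161.1. miR163 lay at chr1:24884359-24884382 on the plus strand in MIR163 (AT1G66725).

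Some abundant sequences overlapped other annotated genes. miR398b-3p/c-3p lay at chr5:4691107-4691127 in MIR398b (AT5G14545), opposite an exon of AT5G14550, and at chr5:4694778-4694798 in MIR398c (AT5G14565), both on the plus strand. miR5026 lay at chr4:7844612-7844632 on the plus strand in MIR5026 (AT4G06075), inside an intron of the non-coding gene AT4G13495 on the same strand, and matched chr5:14318730-14318750 as well, outside any MIR gene. miR3932b-5p lay at chr4:7890695-7890715 on the minus strand in MIR3932b (AT4G06130), which overlaps an exon of the protein-coding gene AT4G13575 on the same strand. It also overlapped MIR3932a (AT4G04825) at chr4:2178984-2179004 on the plus strand. That match was not contained in the MIR3932a exon, and no mature sequence with its ends was annotated there. In all, 40 detected sequences with 7.42% of the reads lay within another gene on the same strand, and 11 with 4.73% also matched outside MIR genes. The origin of such reads cannot be told apart from the counts.

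Pooled by family number, 95 of 213 listed families were detected, 3 families held 50% of the reads and 11 held 90%. miR159 was the largest with 27.5% of the reads in replicate 1 and 27.9% in replicate 2 (27.7 ± 0.30%, SD, n = 2), of which miR159b-3p made up 58.5%. miR158 had 14.3 and 15.3%, and miR166 had 15.6 and 12.2%, so that miR166 ranked above miR158 in replicate 1 and below it in replicate 2. miR398 had 8.41 and 8.33%, miR161 had 7.56 and 8.05%, and miR396 had 5.20 and 5.58%. Of the families with at least 1% of the reads, miR158, miR166, miR5026 (3.81 and 5.50%), miR165 (2.77 and 1.76%) and miR163 (1.76 and 2.74%) had 95% Wilson intervals that did not overlap between the libraries. Smaller shares were taken by miR162 (2.28% on average), miR3932 (1.61%), miR403 (1.57%) and miR167 (1.05%). These 13 families held 93.6% of the reads.

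**Figure D2:**
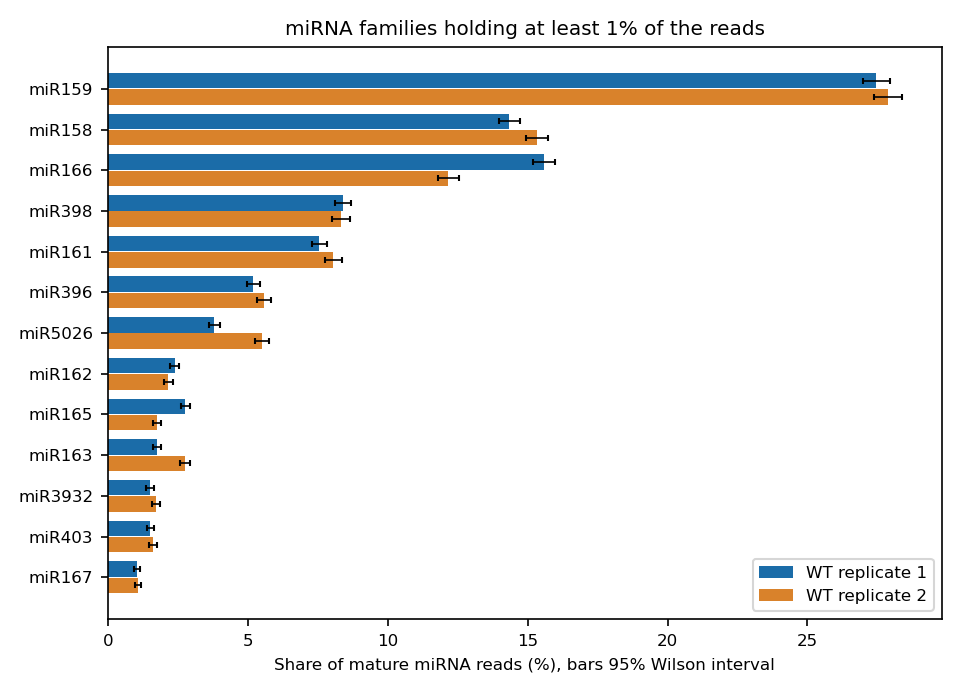
Share of mature miRNA reads (%) of the 13 families with at least 1% of the reads, WT replicate 1 above WT replicate 2, with 95% Wilson intervals. miR159 holds 27.5 and 27.9% of the reads, and the bars of miR158, miR166, miR5026, miR165 and miR163 differ between the libraries beyond their intervals.

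Families grouped by the known role of their targets took unequal shares. A family share pools both arms, so it is not always the level of the strand known for that role. The 13 families of leaf and floral development were all detected and held 54.4 and 50.1% of the reads (52.3 ± 3.07%, SD, n = 2), with a median family at 98.6 RPTM, against a median of 0 RPTM over all 213 families. miR159 and miR166 supplied most of this. miR156 and miR157, which repress SPL transcription factors and hold back the change to the adult phase, had 0.863 and 0.496%. miR172, which acts on AP2-like factors later in that pathway, had 6 and 8 reads, or 4.29 RPTM on average, the lowest family of the list. Between these lay miR319 (0.874 and 0.246%), miR169 (0.417 and 0.427%), miR394 (0.437 and 0.168%) and miR164 (0.208 and 0.141%). miR169 was read almost only as miR169f-3p, since its other detected sequences, miR169a-5p and miR169h to n, had 1 read each. Of the strands directed at GRAS factors of the HAM group, miR171a-3p had 16 and 24 reads, miR171b-3p/c-3p had 8 and 12, and miR170-3p had none. The 46 and 24 reads counted under miR170 were all of a 5p sequence that MIR170 and MIR171a share. The 6 families on a list of pentatricopeptide repeat and other targets were all detected, with 23.8 and 26.3% of the reads. Nearly all of these came from miR158, miR161 and miR163. The other members were miR824 with 28.1 and 27.0 RPTM, miR472, directed at resistance genes, with 7.95 and 7.36 RPTM, and miR400 with 2 and 6 reads. Most miR824 reads were miR824-3p (41 and 41), while miR824-5p, the strand directed at AGL16, had 5 and 3.

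Nutrient and copper families were detected in 7 of 8 cases, miR2111 being the exception, and held 9.04 and 8.87% of the reads. miR398 made up 8.37 of these percentage points on average, while miR408 had 0.280% and the sulfate-related miR395 0.223%. The phosphate-related miR399 had 19.6 and 9.20 RPTM. The laccase-directed miR397 had 3 and 2 reads, miR827 had 1 and 1, and miR857 had 0 and 1. The median family of the list had 7.96 RPTM. The 3 families that target the silencing machinery were all detected with 4.41 and 4.17%, from miR162 (DCL1), miR403 (AGO2) and miR168 (AGO1, 0.447%). The 3 auxin families miR167, miR393 and miR160 held 1.59 and 1.67%. miR167 was the largest of them with 209 RPTM on average, followed by miR393 with 74.1 RPTM and miR160 with 40.7 RPTM. Of the strands directed at auxin genes, the order of the last pair was the reverse, with 73 and 52 reads of miR160a-5p/b/c-5p and 3 and 3 reads of miR393a-5p/b-5p, since nearly all miR393 reads were miR393b-3p. Of the 3 families that trigger tasiRNA production, miR390 and miR173 were detected with 0.250% together, and miR828, which cuts the TAS4 transcript, had no read. Of the 177 families on no list, 61 were detected, with 6.44 and 8.64% of the reads. Besides miR5026 and miR3932, these were led by miR447 with 37.9 and 52.2 RPTM, miR822 with 23.2 and 30.7 RPTM and miR391 with 23.2 and 25.8 RPTM.

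Low family numbers, which were given to the families named earliest, went with high abundance. All 28 families numbered under 400 were detected and held 90.5% of the reads. Of the 185 families numbered 400 and above, 67 were detected with 9.46%, of which miR5026 and miR3932 supplied the most. Of all families, 48 had between 1 and 10 reads.

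Weighted by reads, miRNAs of 21 nt made up 82.4 and 80.4% of the repertoire (81.4 ± 1.42%, SD, n = 2) and miRNAs of 20 nt 15.2 and 16.1%. The 20-nt class was almost only miR158a-3p, with miR156a-5p to f-5p and miR394a/b-5p next, and these 3 left little to the other 11 detected members. Sequences of 24 nt had 1.76 and 2.74%, nearly all miR163, the other detected members miR8121 and miR5653 having 1 read each. Sequences of 22 nt, a length that can trigger secondary siRNAs, were 39 of the listed sequences but had 0.553 and 0.641% of the reads, led by miR167d, miR403-5p and miR173-5p. Sequences of 23 nt had 0.0694 and 0.0624%, led by miR156b-3p, miR5654-3p and miR167c-3p.

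A 5′ U was carried by 91.1 and 89.2% of the reads (90.2 ± 1.30%, SD, n = 2). With each detected sequence counted once, the share was 58.4% of 161, and among the 188 undetected sequences it was 54.8%. With each detected family counted once by its most abundant sequence, it was 67.4% of 95. At positions 2 to 19 of the same sequences, 30.1% of bases were U. Reads with a 5′ A made up 4.90 and 6.54%, of which miR5026, miR393b-3p and miR408-3p were 91.9%. A 5′ G had 2.95 and 3.03%, led by the 3p strands miR396a-3p, miR396b-3p and miR169f-3p, and a 5′ C had 1.08 and 1.19%, led by miR158a-5p, miR168a-3p and miR395b/c/f. The combination of 21 nt with a 5′ U alone held 71.8% of the reads, and 20 nt with a 5′ U 15.5%.

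**Figure D3:**
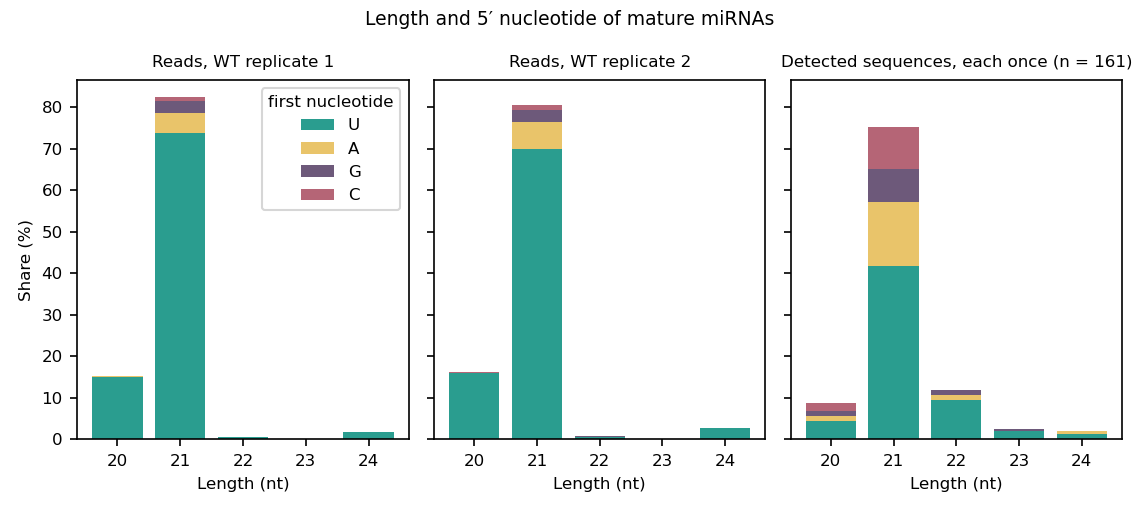
Share (%) by length (nt) and 5′ nucleotide (colours) of the miRNA reads of WT replicate 1 and of WT replicate 2 and of the 161 detected sequences counted once each. The 21-nt class with a 5′ U holds 71.8% of the reads on average and 41.6% of the sequences counted once. Over all lengths, U holds 90.2% of the reads and 58.4% of the sequences counted once.

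The arms of the precursors were used unequally. By names and by position in the annotated precursor, 82.8 and 81.3% of all reads came from 3p arms and 17.2 and 18.7% from 5p arms. The position matched the arm in the name for all 168 sequences that could be compared. Both arms were listed for 75 pairs, in which genes sharing an identical strand were joined, and 35 pairs had at least 10 reads. In some joined pairs an arm was listed for only part of the genes. miR166 joins a 3p strand of 7 genes with 5p strands of MIR166a, MIR166b and MIR166e. The minor arm of miR165a/b, miR167a/b, miR164a/b, miR394a/b, miR160a/b/c, miR156a/b/c/d/e/f, miR399b/c and miR172a/b/e was also listed for part of the genes. In miR169d/e/f/g and miR3932a/b it was the major arm, with 3p listed for MIR169f and MIR169g and 5p for MIR3932b. Reads of an unlisted strand were not counted, so such shares can favour the arm listed for more genes. Of the 35 pairs, 14 had more 5p reads and 21 more 3p reads. The major arm held over 90% of the reads in 20 pairs, and the median minor arm held 7.87%.

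The most 3p-biased pairs included the most abundant miRNAs. miR159b had 2 reads of 5p and 5422 of 3p in replicate 1, and 11 of 5p and 5089 of 3p in replicate 2. The 5p share of miR398b/c was 0.562 and 0.765%, that of miR162a/b 1.45 and 0.606%, and that of miR158a 2.23 and 2.26%. In miR165a/b it was 3.55 and 6.70%, and in miR403 6.67 and 9.16%. In the joined pair miR169d/e/f/g, no read was a 5p strand, the arm that carries the NF-YA-directed sequence, against 142 and 130 reads of 3p. Summed over both libraries and set against 3 reads, 3p was at least 90.7-fold higher.

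The most 5p-biased pairs were miR3932a/b, miR394a/b, miR173, miR164a/b and miR160a/b/c. miR3932a/b had 520 and 524 reads of 5p and none of 3p, at least 348-fold higher by the same limit. Its 5p strand was listed for MIR3932b only, and its 3p strand for both genes. miR394a/b, which targets the F-box gene LCR, had 151 and 51 reads of 5p and none of 3p. The 5p strand was at least 67.3-fold above miR394b-3p, and no 3p strand was listed for MIR394a. miR173, which starts tasiRNA production from TAS1 and TAS2, had 22 and 30 reads of 5p against 0 and 1 of 3p. miR164a/b, directed at the CUC genes of organ separation, had 60 and 37 reads of 5p against 4 and 1 of 3p. miR160a/b/c, directed at repressing ARFs, had 73 and 52 against 5 and 3. The 5p share of miR167a/b was 92.0 and 95.1%, and that of miR156a/b/c/d/e/f 85.6 and 92.1%.

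**Figure D4:**
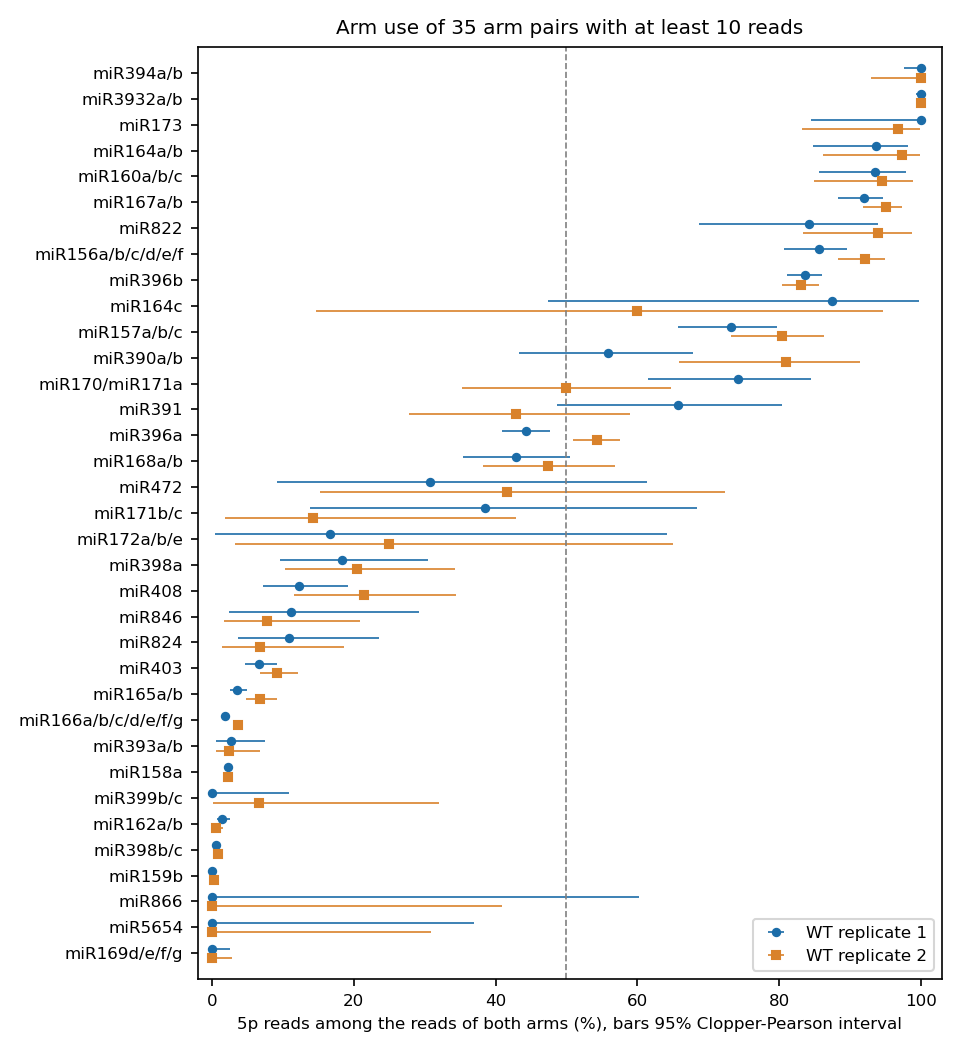
Share of 5p reads (%) among the reads of both arms in 35 pairs with at least 10 reads, WT replicate 1 (circles) above WT replicate 2 (squares), with 95% Clopper-Pearson intervals and a dashed line at 50%. Pairs run from all 5p at the top to all 3p at the bottom, and few lie near the middle, miR396a at 44.3 and 54.3% among them.

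Both arms were read at similar levels in a few pairs, with a minor arm of at least 20% in 10 of 35. Summed over both libraries, miR396a was the closest to even of the 35. It had 391 reads of 5p and 492 of 3p in replicate 1, and 481 of 5p and 405 of 3p in replicate 2. miR396b, whose 5p strand differs from that of miR396a at the last base, had a 5p share of 83.7 and 83.1%. miR168a/b had 75 and 56 reads of 5p, the strand that targets AGO1, against 100 and 62 of 3p. miR157a/b/c had a 5p share of 73.2 and 80.4%, and miR390a/b had 38 and 34 reads of 5p against 30 and 8 of 3p. miR170/miR171a had 46 and 24 reads of 5p against 16 and 24 of 3p, and miR391 had 25 and 18 against 13 and 24. The majority arm was the same in both libraries in 32 of 35 pairs, the exceptions being miR396a, miR391 and miR170/miR171a, the last of which was tied in replicate 2.

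The majority arm began with U in 26 of 35 pairs and the minority arm in 11. In 21 pairs the majority arm had a 5′ U and the minority arm did not, and in 6 it was the reverse. Among the pairs with more 5p reads, 13 of 14 had a 5′ U on the majority arm, and among those with more 3p reads 13 of 21. miR393a/b was among the exceptions. Its 3p strand with a 5′ A had 112 and 124 reads, and its 5p strand with a 5′ U, the strand directed at TIR1 and AFB auxin receptors, had 3 and 3.

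The 5p share differed between the libraries in 2 of 35 pairs (5.71%), by a two-sided Fisher exact test with Benjamini-Hochberg adjustment. In miR166, it was 1.82% in replicate 1 and 3.68% in replicate 2 (adjusted p = 2.63e-06, exact), and in miR396a 44.3 and 54.3% (adjusted p = 0.000494, exact). Without adjustment, 8 of the 35 pairs passed. These tests compare reads of 2 libraries and have no replicate check.

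Close relatives were unequally read. Of the detected sequences, 15 pairs differed at 1 base with no shift, 14 of them sharing a seed, and their sequences held 71.5% of the reads. Positions are counted from 1 at the 5′ end and the more abundant member is given first. miR159b-3p and miR159a (T21A) had 5422 and 4041 reads in replicate 1 and 5089 and 3367 in replicate 2, a ratio of 1.34 and 1.51. miR166 exceeded miR165 (T17C) 5.73-fold and 7.11-fold. miR396b-5p exceeded miR396a-5p (T21G) 1.96-fold and 1.40-fold. miR158a-3p exceeded miR158b (T1C), which begins with C, 219-fold and 216-fold, and miR398b-3p/c-3p exceeded miR398a-3p (G21T) 57.8-fold and 63.2-fold. miR319a/b exceeded miR319c (C20T) 13.4-fold in replicate 1 and 1.88-fold in replicate 2. Whether a rare member held misread copies of its abundant relative was not tested.

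The libraries ranked the sequences alike but differed in level beyond counting error for some of them. Across the 161 detected sequences, log2(RPTM + 1) values had a Pearson r of 0.97 and a Spearman rho of 0.90, given as a description because sequences are not independent replicates. Of 79 sequences with at least 10 reads in all, 51 lay within 1.5-fold and 11 lay beyond 2-fold. By a two-sided exact binomial test on reads scaled to genome-matched totals, 22 of 79 (27.8%) differed at an adjusted p under 0.05, 15 higher in replicate 1 and 7 higher in replicate 2. The biological coefficient of variation between the libraries, estimated with edgeR, was 28.2%. The test weighs deep sequences most. Of the 16 sequences with at least 500 reads, 11 differed, by at most 1.84-fold, and the smallest fold that passed was 1.06.

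**Figure D5:**
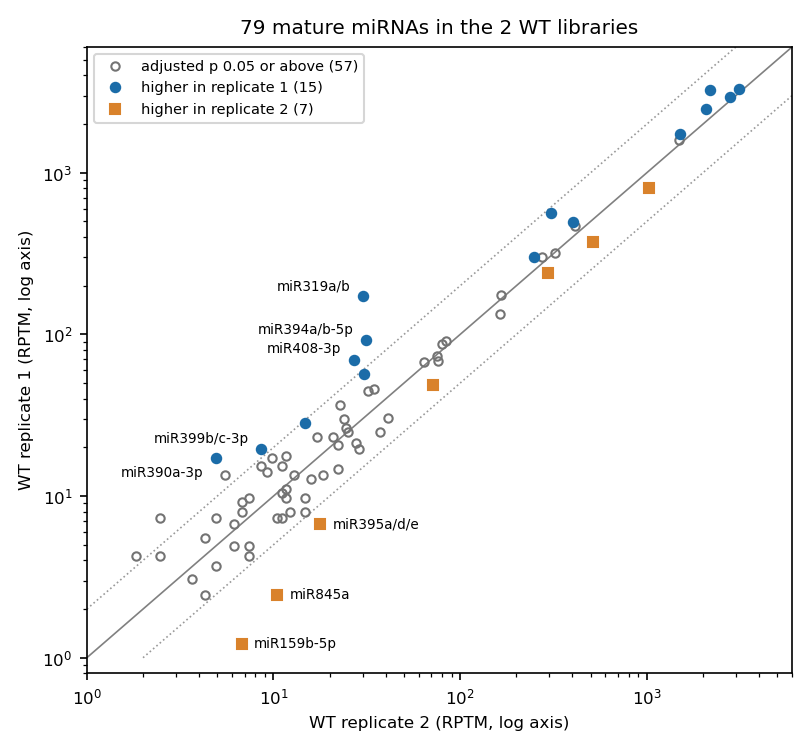
RPTM in WT replicate 1 against WT replicate 2 (both log axes) of 79 mature miRNAs with at least 10 reads, with the line of equality and dotted lines at 2-fold. Filled circles mark 15 sequences higher in replicate 1 and squares 7 higher in replicate 2 at an adjusted p under 0.05, miR319a/b lying farthest above the line.

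The sequences farthest above equality were not the most abundant. miR319a/b, which targets TCP regulators of leaf growth, had 281 reads in replicate 1 and 49 reads in replicate 2, a ratio of 5.72 (95% interval 4.21 to 7.91, adjusted exact p = 4.59e-39). Its relative miR319c had 21 and 26 reads. miR390a-3p had 28 and 8 reads (ratio 3.49, adjusted exact p = 0.00786). miR394a/b-5p had 151 and 51 reads (ratio 2.95, adjusted exact p = 1.78e-11). miR408-3p, directed at plantacyanin and laccases, had 114 and 44 reads (ratio 2.58, adjusted exact p = 2.39e-07). miR399b/c-3p, directed at PHO2, had 32 and 14 reads (ratio 2.28, adjusted exact p = 0.0434), and it no longer passed with any of the other 3 scalings below.

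In the opposite direction, miR159b-5p had 2 reads in replicate 1 and 11 reads in replicate 2 (ratio 0.181, adjusted exact p = 0.0460). miR845a had 4 and 17 reads (ratio 0.235), and miR395a/d/e had 11 and 29 reads (ratio 0.378). miR166a-5p/b-5p had 80 and 117 reads (ratio 0.682), whereas the 3p strand of miR166 went the other way (ratio 1.48, adjusted exact p = 1.60e-72). miR163 had 608 and 835 reads (ratio 0.726). By role, 8 of 29 sequences of leaf and floral development were higher in replicate 1 and 3 in replicate 2, beside 15 and 7 of all 79, and scaled to total miRNA reads the same list gave 4 and 5.

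Total miRNA abundance was 21142 RPTM in replicate 1 and 18668 RPTM in replicate 2, a ratio of 1.13, and miR165 and miR166 made up 51.8% of the difference. Without them the ratio was 1.07. The direction of small differences depended on this scaling. Scaled to total miRNA reads, 7 sequences were higher in replicate 1 and 11 in replicate 2, and the median ratio was 0.94, against 1.06 with genome-matched totals. With TMM factors the split was 8 and 8 (median 0.95), and with DESeq2 size factors 10 and 8. Of all sequences, 7 were higher in replicate 1 with all 4 scalings, among them miR319a/b, miR394a/b-5p, miR408-3p, miR165a-3p/b and miR166 3p, and 7 were higher in replicate 2, among them miR163, miR5026 and miR396a-5p. miR159b-3p and miR158a-3p passed in opposite directions with genome-matched totals and with total miRNA reads.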

How the data were processed

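Small RNA libraries (Illumina HiSeq) were made from total RNA of rosette leaves, 2 per genotype. Per the methods, the authors trimmed adaptors, kept reads of 18 to 30 nt, matched them to the TAIR10 genome and counted only reads that equal a mature sequence listed by miRBase (release 21). The mapping tool is not given in the sources used here. The authors deposited 1 table with raw read counts per mature miRNA and, beside them, a normalized signal, RPTM (reads per 10000000 genome-matched reads). Only the columns of the WT libraries were used. No per-sample column lacked a sample (0 columns). The genome-matched totals were recovered from count and RPTM together.

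Counts, shares, families, arms and seeds were computed in Python 3.11.15 with pandas 2.3.3 and scipy 1.17.1. Sequences with at least 10 reads over both libraries entered the exact binomial tests, and arm pairs with at least 10 reads entered Fisher's exact tests, both adjusted by Benjamini-Hochberg at 0.05. edgeR 4.0.16 (TMM, dispersion) and DESeq2 1.42.0 (size factors) in R 4.3.3 gave alternative scalings. Wilson and Clopper-Pearson intervals (95%) and the 3-read limit cover counting error only, since reads lacking molecular identifiers may be copies of the same molecule. P-values over reads compare these 2 libraries, not conditions. Scripts were tested on simulated data. Alternatives were other scalings, minimums, pseudocounts, weightings, family and arm definitions, and each library left out.

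Named sequences are the 20 highest by mean RPTM, families with at least 1% of reads, the 3 highest of each length and 5′ nucleotide class, among arm pairs with at least 50 reads the 5 highest and 5 lowest 5p shares and those with a minor arm of at least 20%, the 5 largest ratios past the threshold in each direction, and the families of the role lists. miR161.2, miR319c and the relatives at 1 base were added after their values were seen. Members and lists were chosen with earlier results of these data known. Coordinates are from exact matches to TAIR10.1.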

Additional observations from a re-analysis of the deposited data

How the results depend on the processing

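No paired analysis was possible because only 1 group, WT, was described. The 21-nt share of 81.4% was 75.2% with each detected sequence counted once and 74.3% with miR159 left out. The 5′ U share of 90.2% was 58.4% and 86.4% under the same changes, which remove the weight of the most abundant sequences. The 14 of 35 arm pairs with more 5p reads became 25 of 55 with no minimum of reads and 24 of 50 with each gene counted by itself. Pearson r was 0.90 with a pseudocount of 0.1. The number of detected sequences (161, or 122 to 145), the number of families holding 90% of the reads (11, or 10 with near-identical families joined), the miR159 share and the number of arm ratios that differed stayed within 1.5 times their value under the alternatives run. The agreement test passed 16 to 18 sequences with the other scalings, against 22, of which 15 to 17 were shared with it, and 18 or 19 with other minimums or with miR159 left out. With replicate 1 or replicate 2 left out, detection was 142 or 145 and the miR159 share 27.9 or 27.5%. Pairs with more 5p reads were then 12 of 32 or 13 of 31, as fewer pairs reached 10 reads in 1 library. Leaving out a library gives no value for the agreement test, the arm-ratio test or Pearson r, which need both. A depth of 34567 and 30427 miRNA reads limits what can be said of the 102 detected sequences under 10 RPTM.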
